A study of Homo sapiens with 6 samples.

Results

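Sphingolipids are membrane lipids built on a sphingoid base. Their genes were followed here as 37 gene symbols chosen by name, of 38986 symbols in the count files. The choice was made with earlier results of these data known, so the shares of these genes that rose or fell are a description. All 37 symbols were listed. Of these, 32 had enough counts to be tested for a difference between the groups and 5 did not. Serine palmitoyltransferase starts the pathway in the endoplasmic reticulum, ceramide synthases and a desaturase complete ceramide, and ceramide is then turned into sphingomyelin, glucosylceramide or, through sphingosine, into sphingosine-1-phosphate (S1P). Gangliosides are the sialylated glycolipids made from glucosylceramide in the Golgi, and lysosomal hydrolases take them apart step by step. In pigment cells and melanoma, gangliosides are prominent surface lipids and S1P acts through G protein-coupled receptors.

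The RNA-seq data are 6 libraries, 3 for each of 2 groups. One group is labelled as mCherry-positive 293T cells, a human embryonic kidney line, with wild-type STAT6 (genotype STAT6 overexpression), and the other as mCherry-positive 293T cells with Mock (genotype WT). STAT6 is a transcription factor of interleukin 4 and interleukin 13 signalling, and the comparison was made to examine its role in mitochondrial gene expression. How the cells were made to carry STAT6 and mCherry, and whether the libraries came from separate cultures, is not given in the sources used here, so the spread on which the p-values rest may be a technical one. The labels give DMEM with serum as the medium of both groups.

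The data go against the labels. Library totals lay between 19894773 and 29802693 counts, and the files carry mouse gene symbols. Of 7 pigment cell markers none was at 0, and together they held 16705 to 16841 CPM (TMM-scaled CPM, a library's counts of a gene over its total) in the libraries labelled STAT6 and 14404 to 14750 CPM in those labelled Mock. The list did not move as one: Tyr, the enzyme that starts melanin synthesis, was 10.4-fold lower where the label says STAT6 (29.1 ± 0.758 against 303 ± 5.29 CPM), Pmel was lower by a small amount (-0.06), and Tyrp1, Dct, Mitf and Sox10 were higher. Of 5 kidney epithelial markers Pax8 and Epcam were at 0 in all libraries, and the list held 5.15 to 5.57 CPM against 0.517 to 0.738, with Lhx1 at 198 counts against 0. Stat6 itself was lower where the label says STAT6, at 33.6 ± 1.53 against 94.5 ± 1.49 CPM (SD, n = 3; log2 fold change -1.49, SE 0.04, adjusted p = 7.47e-26, edgeR). Directions below follow the labels alone, so that a "higher" gene had a higher level where the label reads STAT6. Whether the groups were exchanged cannot be told from these files, and an exchange would turn every direction given here.

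Sphingolipid genes were more often higher than lower, mostly by less than 2-fold. Of the 32 tested, 18 were higher (56.2%, against 35.8% of all 12938 genes tested), 7 were lower (21.9%, against 36.8%) and 7 were not past the threshold of adjusted p 0.05. Together 25 passed, or 78.1%, near the 72.6% of all genes. The median log2 fold change of the 32 was 0.24 where that of all genes was -0.00. Without regard to direction, the median size of the change was 0.39, against 0.35 for all genes. Only 2 of the 32 changed at least 2-fold (6.25%, against 15.5% of all genes), Sphk1 and S1pr3. One of these, S1pr3, was tested only because of its counts in the libraries labelled STAT6, and without it 17 of 31 were higher, with a median of 0.23. For 26 of the 32 (81.2%, against 74.6% of all genes) the CPM of the 2 groups did not overlap.

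**Figure D1:**
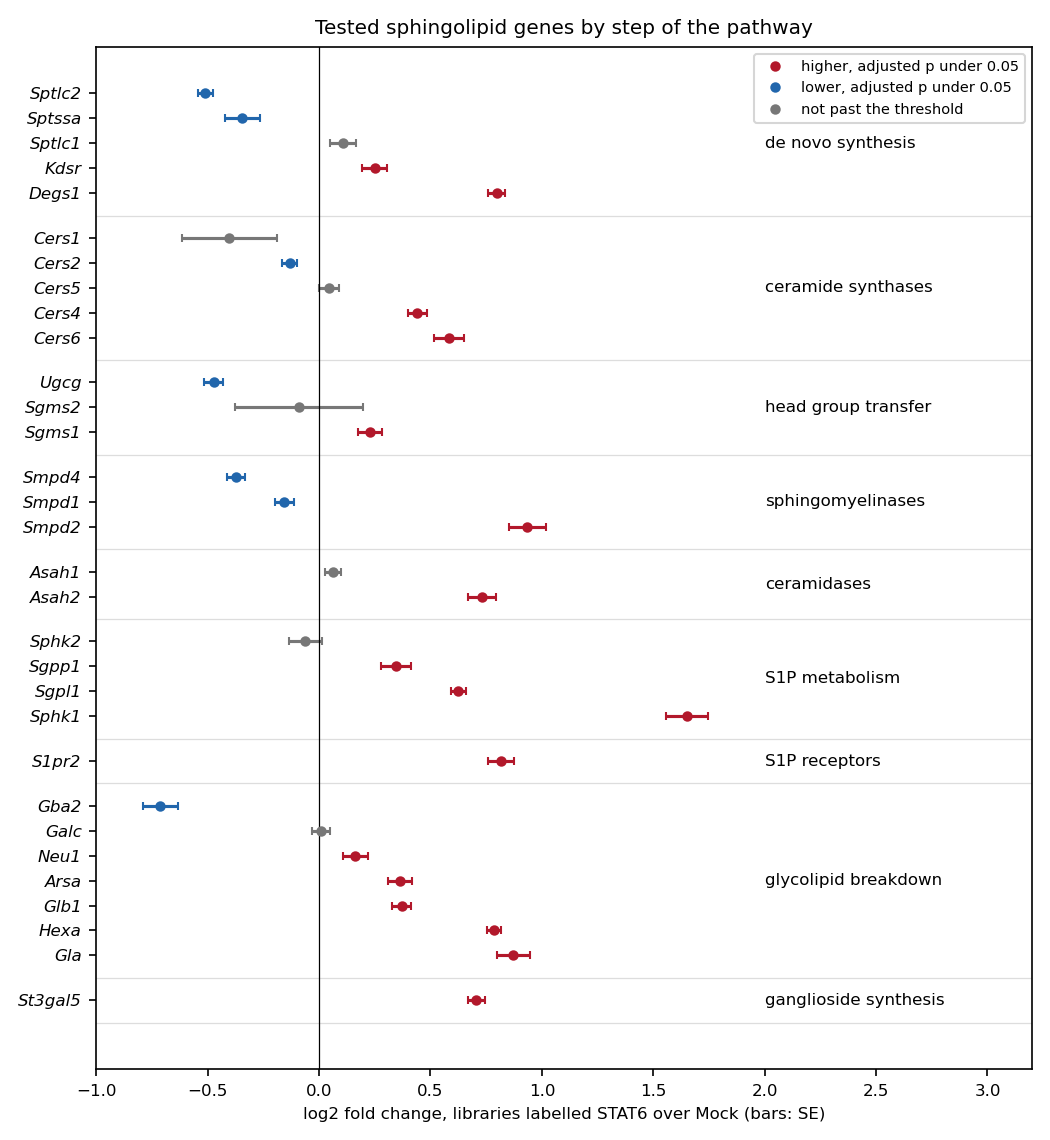
Log2 fold change (x axis, libraries labelled STAT6 over Mock) of 31 tested sphingolipid genes, grouped by pathway step, with points for the estimate and bars for its standard error. S1pr3 is left out because it had 2 counts in Mock. Sphk1 (1.65) lies farthest to the right and Gba2 (-0.71) farthest to the left.

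**Figure D2:**
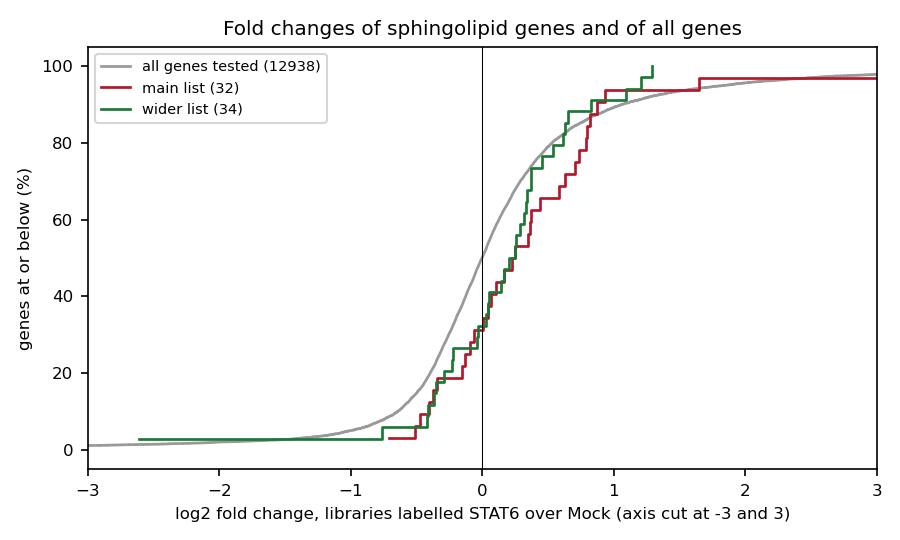
Cumulative share of genes (y axis, percent) by log2 fold change (x axis) for all 12938 genes tested, the 32 tested sphingolipid genes and the 34 tested genes of a wider pathway list. The medians are -0.00, 0.24 and 0.22, and the axis is limited to -3 to 3.

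Sphk1, the sphingosine kinase that makes S1P in the cytosol, had the largest rise of the 31 tested genes other than S1pr3, 3.14-fold, and the genes of the enzymes that remove S1P, Sgpl1 and Sgpp1, rose by less. Sphk1 stood at 15.42, 16.80 and 16.96 CPM in the libraries labelled STAT6 and at 4.69, 5.26 and 5.59 CPM in those labelled Mock (log2 fold change 1.65, SE 0.095, adjusted p = 1.84e-17). Each STAT6 library was above each Mock library. Its relative Sphk2, which is found largely in the nucleus and mitochondria, was at 14.5 ± 0.626 against 15.2 ± 0.443 CPM, and its log2 fold change of -0.06 (SE 0.07) did not pass (adjusted p = 0.455).

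Sgpl1 encodes S1P lyase, which cleaves S1P and is the only exit from the pathway. Its values were 243, 242 and 238 CPM in the libraries labelled STAT6 against 157, 157 and 155 CPM in those labelled Mock (log2 fold change 0.63, SE 0.03, adjusted p = 6.29e-19). The groups were far apart compared with the spread of either. Sgpp1, an S1P phosphatase of the endoplasmic reticulum, was higher by 0.34 (adjusted p = 1.84e-05). Of the 20 tested genes nearest to Sgpl1 in the human gene order (10 on each side), 18 were higher and 2 were lower (median 0.54 on the log2 scale). For Sphk1 the same count was 7 higher and 10 lower, with a median of -0.03. The neighbours of Sptlc2 (0.02), S1pr2 (-0.09), Cers6 (-0.21), Gba2 (-0.10), Cers4 (0.13), Cers2 (-0.09), Smpd4 (0.23) and Smpd1 (0.19) had the medians in brackets, as had those of Sptssa (-0.06), Sgpp1 (-0.05), Arsa (-0.16), Glb1 (0.13) and Neu1 (-0.16). For Arsa the median rests on 10 neighbours in all. The part of such neighbourhoods in these changes was not tested, and the mouse gene order was not used here.

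Among the tested genes, receptors for S1P were represented by S1pr2 and, at a very low level, S1pr3. S1pr2, a G protein-coupled receptor for S1P, rose from 20.7, 22.8 and 21.6 CPM in the libraries labelled Mock to 37.2, 38.1 and 39.3 CPM (log2 fold change 0.82, SE 0.06, adjusted p = 3.78e-15), with no overlap. S1pr3 had 17, 17 and 20 counts under the STAT6 label and 0, 2 and 0 under the Mock label, a ratio of 32.9 with an exact 95% counting interval of 8.69 to 279. Since it entered the test only through the group where it was high, its values are a description. Both Mock counts came from replicate 2. Without that library the ratio was 15.3, with the Mock level put at 3 counts for the remaining pair of libraries. That figure leaves out the counting error of the STAT6 libraries, so it is not a lower bound. S1pr1, the main lymphocyte and endothelial receptor, had 0 counts in all 6 libraries, which allows a level of up to 0.0476 CPM for the STAT6 group and 0.0390 CPM for the Mock group. S1pr4 and S1pr5, of the wider list and named after their values were seen, could not be tested. S1pr4 had 6 counts under the STAT6 label and 0 under the Mock label, and S1pr5 had 2 and 1.

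**Figure D3:**
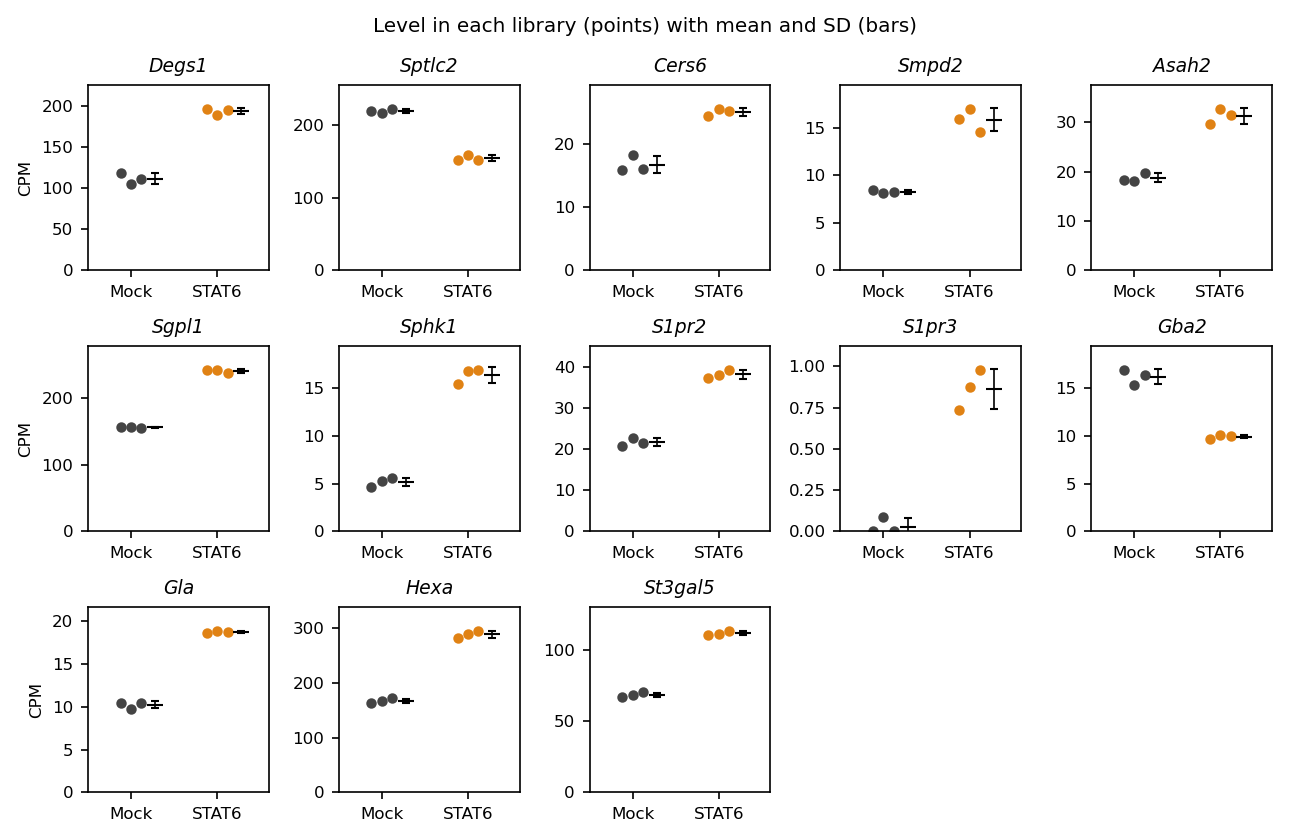
CPM (y axis, from 0) in each library (points, replicates 1 to 3 from left to right) for the 13 sphingolipid genes that passed the threshold with a log2 change of at least 0.5 in size, with the mean and SD as bars. The genes were chosen for the size of their change, so the gap between the groups in each panel is a description (74.6% of all genes had no overlap). Sptlc2 and Gba2 are the 2 that are lower in the libraries labelled STAT6.

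De novo synthesis did not move as one. Its first enzyme was lower in 2 of 3 tested subunits (36.8% of all genes were lower) and its last step was higher. Sptlc2, the catalytic subunit of serine palmitoyltransferase, stood at 151, 158 and 152 CPM in the libraries labelled STAT6 and at 219, 216 and 222 CPM in those labelled Mock (log2 fold change -0.51, SE 0.03, adjusted p = 5.57e-16). All 3 STAT6 libraries were below all 3 Mock libraries. The small activating subunit Sptssa was lower as well, at 27.9 ± 2.83 against 35.4 ± 3.54 CPM (-0.35, adjusted p = 0.000954). Sptlc1, the partner of Sptlc2 in the enzyme, was at 30.3 ± 0.801 against 28.2 ± 1.78 CPM and did not pass (0.11, adjusted p = 0.0988), though it did without Mock replicate 1 (0.15, adjusted p = 0.0299).

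Kdsr, which reduces the first product of the pathway, was higher by 0.25 (adjusted p = 0.000172), and its 20 nearest tested genes had a median of 0.25 (12 higher, 7 lower). Degs1, the desaturase that turns dihydroceramide into ceramide, rose from 118, 105 and 110 CPM in the libraries labelled Mock to 196, 189 and 195 CPM (log2 fold change 0.80, SE 0.04, adjusted p = 5.49e-20). The gap between the groups was many times the spread within them. Among the 20 nearest tested genes of Degs1, 13 were higher and 2 lower, with a median of 0.25. Degs2, a desaturase that also hydroxylates, had 0 counts under the STAT6 label and 3 under the Mock label, too few for a fold.

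Ceramide synthases differ in the length of the acyl chain they attach, and here they differed in direction. Cers6, which makes ceramides with palmitoyl chains, stood at 24.4, 25.6 and 25.2 CPM in the libraries labelled STAT6 against 15.8, 18.4 and 16.1 CPM in those labelled Mock (log2 fold change 0.58, SE 0.07, adjusted p = 1.19e-09), with no overlap. Cers4 was higher by 0.44 (adjusted p = 1.3e-11), at 70.8 ± 0.587 against 52.2 ± 0.923 CPM. Cers2, which prefers very long chains, was lower by a small amount (-0.13, adjusted p = 0.000778), at 168 ± 5.06 against 184 ± 3.63 CPM. Cers5, like Cers6 a palmitoyl-specific enzyme, did not pass (0.04, adjusted p = 0.376). Cers1 had 24 to 70 counts a library and did not pass (-0.40, SE 0.21, adjusted p = 0.088); it did without STAT6 replicate 1 (-0.65, adjusted p = 0.0257) and with library totals alone (-0.48, adjusted p = 0.043), and it shares a transcript with Gdf1, so its reads are hard to assign.

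The ratio of 2 genes within a library does not depend on how the libraries are scaled. The count of Cers6 per count of Cers2 was 0.149, 0.155 and 0.146 under the STAT6 label and 0.0871, 0.101 and 0.0859 under the Mock label, a 1.64-fold difference. For Ugcg over Sgms1 the ratio was 1.82, 1.88 and 1.73 against 2.90, 3.02 and 2.88, or 1.62-fold higher in the libraries labelled Mock. These genes set glucosylceramide against sphingomyelin as the fate of ceramide. Sphk1 over Sphk2 came to 1.03, 1.14 and 1.23 against 0.309, 0.337 and 0.380, and Sphk1 over Sgpl1 to 0.0634, 0.0693 and 0.0714 against 0.0298, 0.0335 and 0.0361. In both ratios each library labelled STAT6 lay above each one labelled Mock. In these 4 pairs the groups did not overlap (exact permutation test, 2-sided, p = 0.1 each, the smallest that 20 assignments allow). Adjusted over the 5 pairs tested, the p of this test was 0.125 for each. The pairs were chosen with earlier results known, and 74.6% of all genes tested had no overlap in CPM. The share over other gene pairs was not computed. Sgms1 over Sgms2 did overlap, at 25.7, 41.5 and 48.7 against 28.9, 26.3 and 30.3 (exact permutation test, p = 0.4), on as few as 15 counts of Sgms2.

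**Figure D4:**
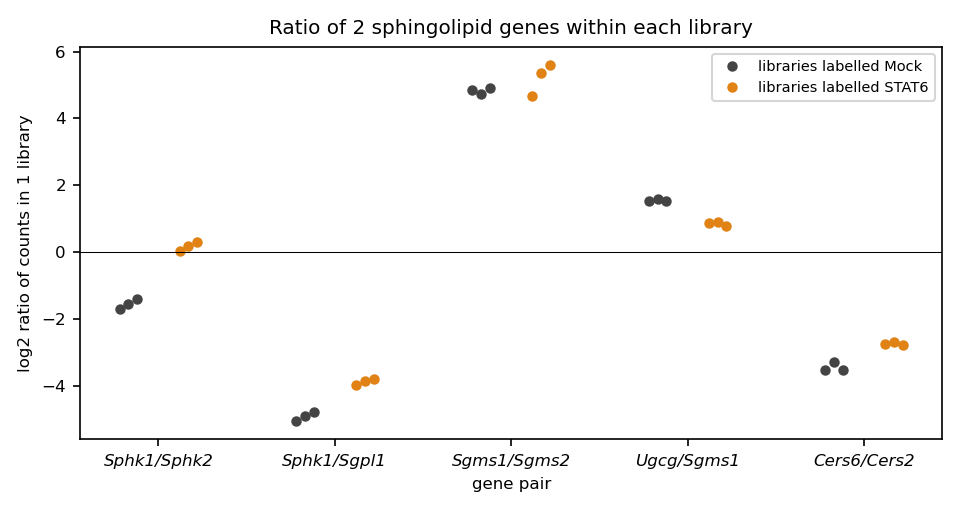
Log2 of the ratio of counts of 2 genes (y axis) in each library (points) for 5 gene pairs (x axis). For 4 pairs the STAT6 and Mock points do not overlap, with Sphk1/Sphk2 the widest apart (1.73 on the log2 scale), and Sgms1/Sgms2 overlaps. The pairs were chosen with earlier results known, and 74.6% of all single genes tested had no overlap in CPM.

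The enzymes that put a head group on ceramide moved by less than 1.5-fold. Ugcg, the glucosylceramide synthase that opens the ganglioside route, was lower, at 62.9 ± 1.29 against 87.3 ± 4.69 CPM (log2 fold change -0.47, SE 0.04, adjusted p = 3.63e-12). Sgms1, the sphingomyelin synthase of the Golgi, was higher, at 34.8 ± 0.885 against 29.7 ± 0.893 CPM (0.23, adjusted p = 0.000291), with 14 higher and 3 lower among its 20 nearest tested genes and a median of 0.29. For Ugcg these were 6 higher and 10 lower, with a median of -0.12. Sgms2, the synthase of the plasma membrane, had 15 to 31 counts a library and did not pass (-0.09, SE 0.29, adjusted p = 0.785).

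Sphingomyelinases release ceramide from sphingomyelin, and 1 of the 3 tested rose while 2 fell. Of all genes tested, 35.8% were higher and 36.8% lower. Smpd2, a neutral sphingomyelinase, stood at 15.94, 17.01 and 14.60 CPM in the libraries labelled STAT6 against 8.51, 8.10 and 8.24 CPM in those labelled Mock (log2 fold change 0.94, SE 0.085, adjusted p = 4.81e-12). No library of one group reached the other group. Of its 20 nearest tested genes 18 were higher and 0 lower, with a median of 0.76. Smpd4, another neutral sphingomyelinase, fell by 0.37 on the log2 scale (adjusted p = 3.38e-10), and Smpd1, the acid enzyme of the lysosome, fell by 0.16 (adjusted p = 0.00173). Smpd3 had 2 counts under the STAT6 label and 0 under the Mock label.

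Ceramidases free sphingosine from ceramide, and of the 2 ceramidase genes among the 37 the neutral one rose. Asah2 was at 29.7, 32.8 and 31.5 CPM in the libraries labelled STAT6 and at 18.3, 18.2 and 19.8 CPM in those labelled Mock (log2 fold change 0.73, SE 0.06, adjusted p = 7.28e-13), again without overlap. Among its 20 nearest tested genes 15 were higher and 2 lower, with a median of 0.29, the same as for Sgms1. The neighbours of different genes can be partly the same genes, so they are not separate observations. Asah1, the lysosomal acid ceramidase, was at 162 ± 2.28 against 155 ± 5.80 CPM and did not pass (0.06, adjusted p = 0.102), though it did without Mock replicate 1 (0.09, adjusted p = 0.0384).

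Lysosomal enzymes of glycolipid breakdown were mostly higher. Of the 7 breakdown genes 5 rose (Gla, Hexa, Glb1, Arsa and Neu1), Galc did not pass, and the 1 that fell, Gba2, encodes a glucosylceramidase that works outside the lysosome. That is 71.4% higher and 85.7% past the threshold, where all genes gave 35.8% and 72.6%. Gla, the alpha-galactosidase that trims globosides, stood at 18.7, 18.9 and 18.7 CPM in the libraries labelled STAT6 and at 10.5, 9.78 and 10.4 CPM in those labelled Mock (log2 fold change 0.87, SE 0.075, adjusted p = 1.16e-12). Hexa, the alpha subunit of the hexosaminidase that degrades ganglioside GM2, went from 164, 167 and 172 CPM to 283, 289 and 296 CPM (0.79, SE 0.03, adjusted p = 1.17e-21). Both genes separated the groups without overlap. Their 20 nearest tested genes had medians of -0.17 and 0.01.

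Glb1, the beta-galactosidase of ganglioside GM1, was higher by 0.37 (adjusted p = 1.29e-09) and Arsa, the sulfatase of sulfatide, by 0.36 (adjusted p = 3.06e-07). The smallest rise was that of Neu1, a sialidase, at 29.98 ± 0.737 against 26.7 ± 0.922 CPM (0.16, adjusted p = 0.0107); this call was lost with library totals alone (0.09, adjusted p = 0.163) and without STAT6 replicate 3 (0.14, adjusted p = 0.0534). Galc, which removes galactose from galactosylceramide, was at 67.3 ± 0.219 against 67.1 ± 2.17 CPM (0.01, adjusted p = 0.885). Gba2 went the other way, with 9.72, 10.05 and 9.95 CPM in the libraries labelled STAT6 against 16.9, 15.3 and 16.4 CPM in those labelled Mock (-0.71, SE 0.08, adjusted p = 6.45e-10). It was the largest fall among the tested genes of the 37.

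Other genes of the pathway came from a wider list of 54 symbols in the files, written with earlier results of these data known. Of its 34 tested genes 17 were higher (50%) and 9 lower (26.5%), and 8 did not pass. The share past the threshold, 76.5%, was near the 72.6% of all genes, of which 35.8% were higher and 36.8% lower. The median of the list was 0.22 on the log2 scale. Its 8 tested breakdown genes held 7 that were higher (87.5%) and 0 lower. Psap, the precursor of the saposins that present glycolipids to the hydrolases, went up 2.45-fold, from 391 ± 8.64 to 958 ± 28.2 CPM (1.29 on the log2 scale, SE 0.03, adjusted p = 1.86e-29). Scarb2, the receptor that carries glucocerebrosidase to lysosomes, rose from 68.7 ± 2.77 to 159 ± 4.82 CPM (1.21, SE 0.04), and Sumf1, which activates sulfatases such as arylsulfatase A, was higher by 0.46. Among the 20 nearest tested genes of Psap 18 were higher (median 0.49), and among those of Scarb2 9 were higher and 7 lower (median 0.10).

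**Figure D5:**
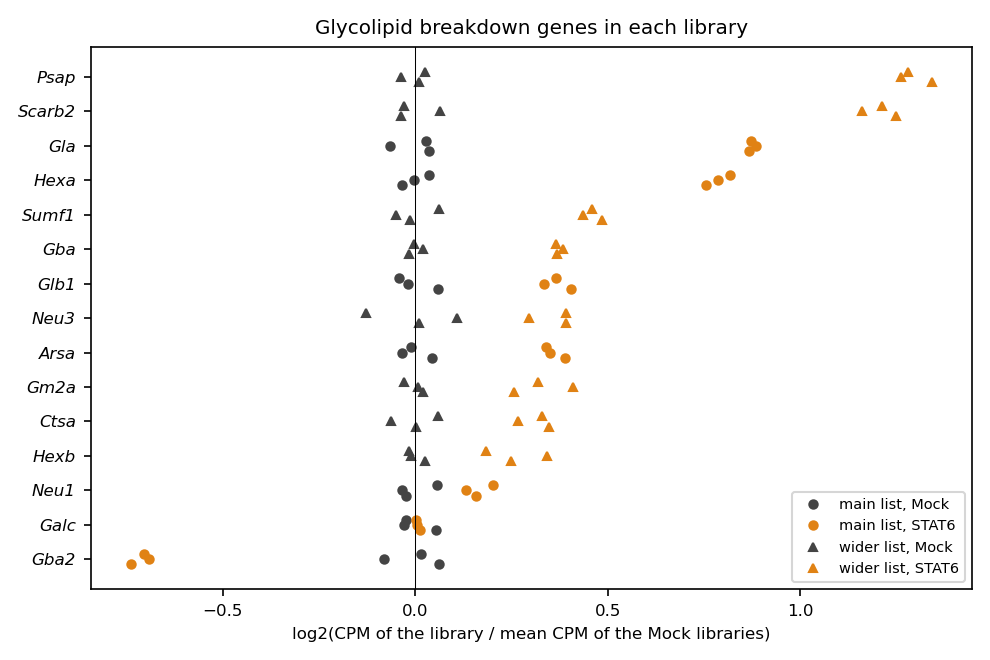
Log2 of each library's CPM over the mean CPM of the Mock libraries (x axis) for the 7 breakdown enzymes (circles) and 8 breakdown genes of the wider list (triangles), 1 row a gene. Psap and Scarb2 lie farthest to the right, 13 of the 15 genes have all STAT6 points to the right of all Mock points, Galc overlaps and Gba2 lies to the left; the groups did not overlap in 74.6% of all genes tested.

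The rest of the wider list split. Smpdl3b, a membrane phosphodiesterase related to acid sphingomyelinase, had the largest fall, from 5.34 ± 0.525 to 0.865 ± 0.172 CPM (-2.61 on the log2 scale, SE 0.19, adjusted p = 2.69e-14), whereas its relative Smpdl3a rose from 35.2 ± 0.684 to 75.4 ± 1.73 CPM (1.10, SE 0.04, adjusted p = 6.53e-22). Of the 20 tested genes nearest to Smpdl3a 16 were higher, with a median of 0.54. Cert1, which carries ceramide to the Golgi for sphingomyelin synthesis, was lower, with 59.7 ± 2.24 against 79.9 ± 4.18 CPM (-0.42, adjusted p = 1.66e-10). Its 20 nearest tested genes had a median of -0.365 (5 higher, 12 lower). Ormdl3, a brake on serine palmitoyltransferase, was higher by 0.54 (adjusted p = 1.62e-06). Its relatives, named here after their values were seen, did otherwise: Ormdl2 was lower (-0.36, adjusted p = 4.11e-07) and Ormdl1 did not pass (0.04, adjusted p = 0.448). Aldh3a2 (0.65), an aldehyde dehydrogenase that handles the product of S1P lyase, and the lysosomal amidase gene Naaa (0.62) were higher. The ceramidase genes of the wider list were also named after their values were seen. Acer2 was lower (-0.35, adjusted p = 0.000137), Acer3 did not pass (0.14, adjusted p = 0.0886) and Acer1 had 0 counts.

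Among the tested genes outside the wider list, ganglioside synthesis was represented by its first sialyltransferase alone. St3gal5, which makes ganglioside GM3 from lactosylceramide, stood at 111, 111 and 113 CPM in the libraries labelled STAT6 and at 67.1, 68.0 and 70.1 CPM in those labelled Mock (log2 fold change 0.71, SE 0.04, adjusted p = 3.05e-18), with no overlap. Of its 20 nearest tested genes 14 were higher and 5 lower, with a median of 0.42. The enzymes that extend GM3 were close to undetected: B4galnt1, which makes GM2 and GD2, had 2 and 3 counts over the groups labelled STAT6 and Mock, and St8sia1, the GD3 synthase, had 10 and 5 (ratio 2.44, exact 95% counting interval 0.760 to 9.10). Neither could be tested. Of the sialyltransferase genes in the wider list, St3gal2 (0.83) and St3gal1 (0.63) were higher and St6galnac3 (-0.77) was lower. St6galnac6 was lower as well (-0.23), and St3gal3 (0.05) and St6galnac4 (-0.04) did not pass, all 3 named after their values were seen. B4galt5 and B4galt6, glycolipid synthesis genes of the wider list also named after their values were seen, went in opposite directions. B4galt5 was lower (-0.29, adjusted p = 5.27e-07) and B4galt6 was higher (0.20, adjusted p = 1.97e-05). Of the 8 tested glycolipid synthesis genes in the wider list, 3 were higher and 3 lower.

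Among fibroblast, endothelial and leukocyte markers only Col1a1 passed the threshold, and Pdgfra did not (0.34, adjusted p = 0.223). The endothelial and leukocyte markers had too few counts to be tested, and the leukocyte totals of the groups overlapped. Of 4 fibroblast markers none was at 0 in all libraries, and together they held 76.5 to 82.8 CPM in the libraries labelled STAT6 and 5.599 to 6.55 CPM in those labelled Mock. Nearly all of it was Col1a1 (78.7 ± 3.14 against 4.85 ± 0.421 CPM). Dcn and Lum had 0 counts under the STAT6 label and 1 each under the Mock label. Of 4 endothelial markers Cdh5 was at 0, with a list total of 0.588 to 1.03 against 0 to 0.262 CPM. Of 4 leukocyte markers Adgre1 and Cd3e were at 0, with 0.0490 to 0.206 against 0 to 0.0654 CPM. Their part in the changes above was not tested, and in bulk RNA fewer cells of a type and less RNA per cell cannot be told apart.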

How the data were processed

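The authors deposited 1 file per library with 1 whole-number count per gene symbol. Per the submitters' processing notes, the tools included STAR, Salmon, FastQC and edgeR (versions not listed) and the build was human GRCh37. The strand setting and the read assignment are not stated in those sources. The deposited counts went unchanged into edgeR 4.0.16 (R 4.3.3). filterByExpr set the genes tested (12938 genes, 99.93% of counts). After TMM scaling, glmQLFit (robust) and glmQLFTest compared the groups, 2-sided and without covariates, and p-values were adjusted by Benjamini-Hochberg across these genes (threshold 0.05). Adjusted p-values are from this test; an SE is the log2 fold change over the square root of F. CPM is the count over the TMM-scaled library total, given as mean ± SD (n = 3); CPM does not correct for gene length, so levels are not compared between genes. The fit was tested on simulated data in which far fewer genes changed than passed the threshold here.

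Values in each library are given for sphingolipid genes past the threshold with a log2 change of at least 0.5, and by range or summary for the others. From the wider list, up to 12 tested genes past the threshold with a mean of at least 2 CPM and the largest change are named. The genes, lists, gene pairs and markers were chosen with earlier results of these data known. The neighbouring genes (up to 10 each side, in the order of GRCh38.p14, matched by name) were added after the data were seen. Counting intervals and floors cover counting error only. Alternatives were other scalings (DESeq2 size factors, library totals, upper quartile), no filter, 1 CPM in 3 libraries, DESeq2 1.42.0, limma-voom (limma 3.58.1), the replicate number as a block, each library left out, and adjusted p 0.01. Between 2 libraries of a group, the median chi-square of counts was 1.46 to 2.48 times counting noise, so none was a copy.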

Additional observations from a re-analysis of the deposited data

How the results depend on the processing

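Over all alternatives the sphingolipid genes called higher numbered 17 to 20 and those called lower 7 to 8, and the wider list gave 17 to 18 and 9. The genes called over all tested ranged from 8452 (adjusted p 0.01) to 9942 (no filter). The 17 came from Neu1 or from S1pr3, which did not reach 1 CPM in 3 libraries. With the replicate number as a block, all 25 of the 25 sphingolipid calls were kept in direction and side and 9422 genes were called. The deviations of same-numbered libraries correlated at 0.0729, 0.103 and 0.00611, and 4 of 6 libraries correlated best with their own number. With 3 libraries a group these values cannot settle whether the numbers are pairs. The labels state no pairing, so the main fit used none. Directions that turned belonged to genes not past the threshold. With library totals alone Cers5 was at -0.0304, Asah1 at -0.0113 and Galc at -0.0669. Galc was also at -0.00876 with upper-quartile scaling and -0.00971 with no filter, and between -0.0109 and 0.0279 when each library was left out. Sgms2 lay between -0.42 and 0.0676 when each library was left out. The cause was not tested. The within-library differences of the 5 gene pairs kept their sign, that of Sgms1/Sgms2 ranging from 0.20 without STAT6 replicate 3 to 0.66 without STAT6 replicate 1. Depth limits the genes with few counts, Cers1, Sgms2 and S1pr3, and those not tested.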
